A study of Mus musculus with 6 samples.

Results

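The 33 genes described here encode the proteins that make blood clot, hold clotting in check and dissolve the clot. They were listed by name: clotting factors, fibrinogen chains, kininogens, anticoagulant proteins and genes of fibrinolysis. All 33 were found among the 23284 genes of the count tables, and 32 of them had enough reads to be tested. The question put to the data is whether their hepatic mRNA levels differed between mice whose livers expressed FXR-WT and mice whose livers expressed Y67F-FXR.

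All mice were male FXR floxed mice that received AAV8 vectors by tail vein injection at 8 weeks of age. FXR, the farnesoid X receptor, is a nuclear receptor for bile acids (BAs). Every mouse received AAV-TBG-Cre, which removes the floxed mouse gene in hepatocytes, because the TBG promoter is active in that cell type. With it came either AAV-TBG-WT FXR (FXR-WT) or AAV-TBG-Y67F FXR (Y67F-FXR), in which tyrosine 67 of FXR is replaced by phenylalanine and cannot be phosphorylated at that site. Other liver cells kept their own FXR gene. The vectors were given 4 weeks to act, and both groups then ate chow containing 0.5% cholic acid (CA), a BA that activates FXR, over 6 h. The files hold RNA-seq libraries of 3 FXR-WT and 3 Y67F-FXR livers, and how these were chosen from the mice of the study is not given in the sources used here. Livers without FXR, and livers without CA chow, were not analysed here, so each value compares both forms of the receptor under the same BA stimulus.

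Hepatocytes make most of the circulating clotting proteins. In the cascade, the contact system (factor XII, plasma prekallikrein, high molecular weight kininogen and factor XI) or tissue factor with factor VII leads to activation of factor X, which with its cofactor factor V turns prothrombin into thrombin. Thrombin cuts fibrinogen into fibrin, which factor XIII crosslinks and plasmin dissolves. Serpins such as antithrombin, and the protein C pathway, limit these steps. Several of the factors need vitamin K for a modification that lets them bind membranes. Fibrinogen and kininogen genes are known targets of FXR.

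The fibrinogen genes Fga, Fgb and Fgg encode the 3 chains of one secreted protein. They lie side by side on chromosome 3, with 8687 bp between Fgb and Fga and 11103 bp between Fga and Fgg in mm9 and no other gene of the count annotation between them. Their promoters are shown because the 3 genes had lower values in the same livers. Each sequence runs from 250 bases before to 50 bases after the start of the RefSeq gene (RefSeq sequences, build GRCm38.p6), 5′ to 3′ on the strand of the gene. Fga lies at chr3:83025903-83026202 on the + strand, Fgb at chr3:83049814-83050113 on the − strand and Fgg at chr3:83007474-83007773 on the + strand. Capitals mark the bases from the start of the gene on.
Fga promoter: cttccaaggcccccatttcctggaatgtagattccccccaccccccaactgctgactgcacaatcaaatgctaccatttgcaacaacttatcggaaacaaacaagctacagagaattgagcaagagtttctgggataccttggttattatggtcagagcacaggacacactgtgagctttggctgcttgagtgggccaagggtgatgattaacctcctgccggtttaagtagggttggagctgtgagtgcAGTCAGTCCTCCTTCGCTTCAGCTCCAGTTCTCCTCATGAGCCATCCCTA
Fgb promoter: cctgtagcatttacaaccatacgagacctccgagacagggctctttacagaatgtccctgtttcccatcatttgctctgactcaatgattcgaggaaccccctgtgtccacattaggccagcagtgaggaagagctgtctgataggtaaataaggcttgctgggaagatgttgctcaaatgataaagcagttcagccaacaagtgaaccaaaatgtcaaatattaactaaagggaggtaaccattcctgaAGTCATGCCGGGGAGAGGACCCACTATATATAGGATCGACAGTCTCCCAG
Fgg promoter: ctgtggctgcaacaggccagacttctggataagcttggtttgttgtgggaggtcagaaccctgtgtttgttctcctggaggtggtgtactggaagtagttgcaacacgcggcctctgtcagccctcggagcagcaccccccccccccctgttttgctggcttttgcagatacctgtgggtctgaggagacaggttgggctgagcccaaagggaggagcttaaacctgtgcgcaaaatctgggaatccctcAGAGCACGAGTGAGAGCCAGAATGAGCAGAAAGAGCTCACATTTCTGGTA

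Of the 33 genes, 26 had a promoter in the RefSeq table, with 27 promoters in all since Tfpi had 2. The FXR motif searched in them was the inverted repeat of AGGTCA and TGACCT spaced by 1 base, on both strands and with up to 2 mismatches in the 12 half-site bases. It was found in 0 of the 27 promoters, the fibrinogen promoters included, and in 1.14% of all 32851 mouse promoters of the same length. At that share a count of 0 among 27 does not set these genes apart. A direct repeat of AGGTCA spaced by 1 base, the motif of HNF4, was searched with the same limit and was found in 1 of 27, the F7 promoter (TGACCTTTGCCCT, first base at position -34, with the start base as 1), and in 3.86% of all promoters. The letters TATAAA, on either strand with no mismatch, were found in 4 of 27 (Tfpi, F3, Klkb1 and Hrg), against 13.6% of all promoters. The FXR and HNF4 motifs share their half-site letters, so matches to them can overlap. These matches describe letters in a window of 300 bases and are not evidence of binding. Promoters were not searched for Proc, Vwf, Kng1, Serpina10, Thbd, Plg and Plat.

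The libraries held from 19551113 to 22053320 counted reads. The 33 genes took 2.58%, 2.33% and 2.57% of the reads in FXR-WT replicates 1 to 3 and 2.14%, 1.97% and 2.20% in Y67F-FXR replicates 1 to 3. Livers of the same group differed by more than counting noise (chi-square per gene with a median of 2.21 to 7.84), and each counts as a replicate. A trend with gene length ran through the libraries, and each group held a library at either end of it. Here the length is the total of the exons of a gene, and levels were compared with the mean over the livers of both groups. For the fifth of genes with the shortest total, FXR-WT replicate 1 lay 0.20 (log2) above that mean. Y67F-FXR replicate 2 lay 0.22 above it. The same genes lay 0.18 below it in FXR-WT replicate 3 and 0.20 below it in Y67F-FXR replicate 1. Nr1h4, the FXR gene, had 152, 209 and 198 CPM (reads scaled to library size with TMM factors) in FXR-WT and 169, 169 and 186 CPM in Y67F-FXR livers, and the groups overlapped. The counts per gene cannot separate the remaining endogenous transcript from that of the vector. The paper describes its flag-tagged FXR as human and does not state the species of the FXR in the AAV vectors. How fully the transcript of the vector was counted on the mouse gene is therefore not known.

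Markers were checked for the cells that a liver sample can hold. The summed level of 7 hepatocyte genes was 107788 to 123084 CPM in FXR-WT and 106484 to 127539 CPM in Y67F-FXR livers. The sum of 10 endothelial genes was 285 to 336 CPM and 296 to 313 CPM, and that of 7 platelet and megakaryocyte genes 4.23 to 5.87 CPM and 4.57 to 8.51 CPM. For 9 Kupffer cell and leukocyte genes it was 141 to 219 CPM and 115 to 313 CPM, and for 4 cholangiocyte genes 9.29 to 13.9 CPM and 11.96 to 12.22 CPM. The sum of 6 stellate cell genes was 160 to 171 CPM in FXR-WT and 110 to 158 CPM in Y67F-FXR livers, and here the groups did not overlap. Hba-a1, Hba-a2 and Hbb-b1 were listed at 0 in all 6 livers, while Alas2, the remaining erythrocyte gene, had 80.1 to 89.3 CPM and 86.5 to 114 CPM. Hba-a1 (chr11:32183672-32197303) and Hba-a2 (chr11:32183675-32197310) overlap in the count annotation, and reads on several genes or places were not counted. Their counts of 0 therefore do not measure their levels, and the cause of the 0 for Hbb-b1 was not tested. Of 40 marker genes tested by edgeR's quasi-likelihood test, 0 were called in either direction. The unadjusted p was under 0.05 for 6 of these 40 genes, each lower in Y67F-FXR (Lyve1, S100a8, S100a9, Lrat, Acta2 and Col1a1). Over all genes tested, 6.67% were lower at that threshold. DESeq2 called 3 of 41 markers lower (Lrat, S100a8 and S100a9), against 1.55% of all genes to which it gave an adjusted p. For Acta2 the groups overlapped. It had 9.88 CPM in FXR-WT replicate 1, and the other FXR-WT livers were far lower (1.56 CPM in replicate 3). Whether these cell types had a part in the results was not tested.

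Most of the 33 genes were abundant. Levels can be compared between genes as RPKM, the reads per kilobase of exon and per library size, here with TMM scaling. The exon length is that of the count annotation, and the longest coding transcript in GENCODE vM21, a later set, can differ from it. For Fgb these lengths were 1573 and 3810 bp, for Fga 3360 and 2587 bp and for Serpinc1 2161 and 4970 bp. The order of levels depends on the length used. The highest mean level over all 6 livers was that of Fgb, followed by Fgg, Serpinc1 (antithrombin), Plg (plasminogen), Fga, F2 (prothrombin), Hrg and Kng1. Below Fgb and Fgg the order differed between the groups. By group means Fga was the third in FXR-WT, above Serpinc1 and Plg, and below F2 and Hrg in Y67F-FXR, and Kng1 was above F2 and Hrg in FXR-WT and below both in Y67F-FXR. The means of Kng1 and F2 in FXR-WT, and those of Fga, F2 and Hrg in Y67F-FXR, lay closer together than the larger of their SDs. Fgb had 2215 ± 336 RPKM in FXR-WT and 1529 ± 159 RPKM in Y67F-FXR livers (SD, n = 3 each). Serpinc1 and Plg, next to each other in the order, had overall means of 885.3 and 884.6 RPKM and did not differ beyond their spread. At the other end, 6 genes with a mean below that of Ggcx (10.2 RPKM) were F3 (2.72), F8 (1.34), Tfpi (0.943), Vwf (0.635), Thbd (0.518) and Plat (0.165). F3 encodes tissue factor, and Vwf and Thbd encode von Willebrand factor and thrombomodulin, which are known as endothelial genes. Plat, tissue plasminogen activator, had only 8, 7 and 7 reads in FXR-WT and 8, 6 and 16 reads in Y67F-FXR livers and was not tested. Liver RNA was bulk RNA, so fewer cells of a type and less RNA per cell cannot be told apart.

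**Figure D1:**
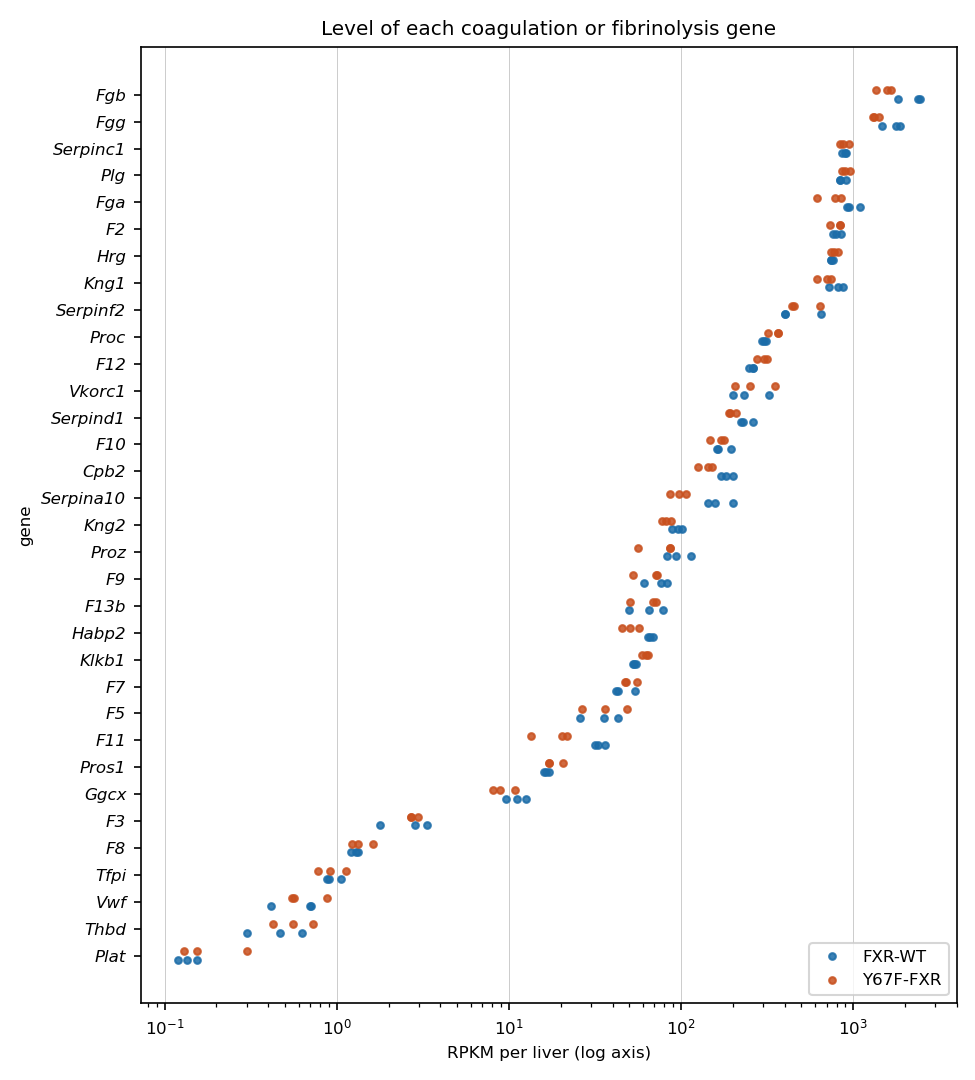
Level of each of the 33 genes as RPKM per liver on a log axis, with 1 point per liver (blue, FXR-WT; orange, Y67F-FXR) and genes ordered by their mean over the 6 livers. Fgb and Fgg are at the top and Plat at the bottom, and the points of both groups overlap for most genes.

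No gene of the set was called in either direction. A call needed an adjusted p under 0.05 over the 12453 genes tested (quasi-likelihood test of edgeR, Benjamini-Hochberg method) together with a fold change over 1.5, and 0.426% of all genes were called lower and 0.546% higher in Y67F-FXR. Of the 32 genes tested, 17 had a fitted value below 0 and 15 above 0. Their median log2 fold change was -0.01, against 0.01 over all genes. With scaling by library totals in place of TMM factors, 21 of the 32 genes had a value below 0 and 11 above, and over all genes 68 were called lower and 52 higher, where the TMM-scaled counts gave 53 and 68. The split was 16 below and 16 above with an offset for gene length, and 15 below and 18 above with DESeq2 and 16 below and 17 above without a filter on low counts, both of which gave a value for all 33 genes. An unadjusted p under 0.05 was reached by 7 of the 32 genes (21.9%), all lower in Y67F-FXR, where 6.67% of all genes tested were lower at that threshold. In the other direction the count was 0, with 6.75% over all genes. With the offset for gene length 8 genes were lower, against 8.21% of all genes, and 3 were higher, F12, Klkb1 and Proc, against 8.57%. Without FXR-WT replicate 3 only 4 were lower, against 5.26%. The count was 0 higher under every alternative other than the length offset. The groups did not overlap, with all 3 Y67F-FXR livers below all 3 FXR-WT livers, for 9 genes (28.1%, against 10.5% of all genes). All 3 Y67F-FXR livers were above for 3 genes (9.38%, against 10.2%). DESeq2 called 2 genes lower, F11 and Serpina10, and 0 higher, where it called 1.55% of the 13315 genes to which it gave an adjusted p lower and 1.6% higher. For 17 genes the 95% interval of the log2 fold change lay within a 1.5-fold difference either way, for 9 it reached past 1.5-fold lower and for 6 past 1.5-fold higher.

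**Figure D2:**
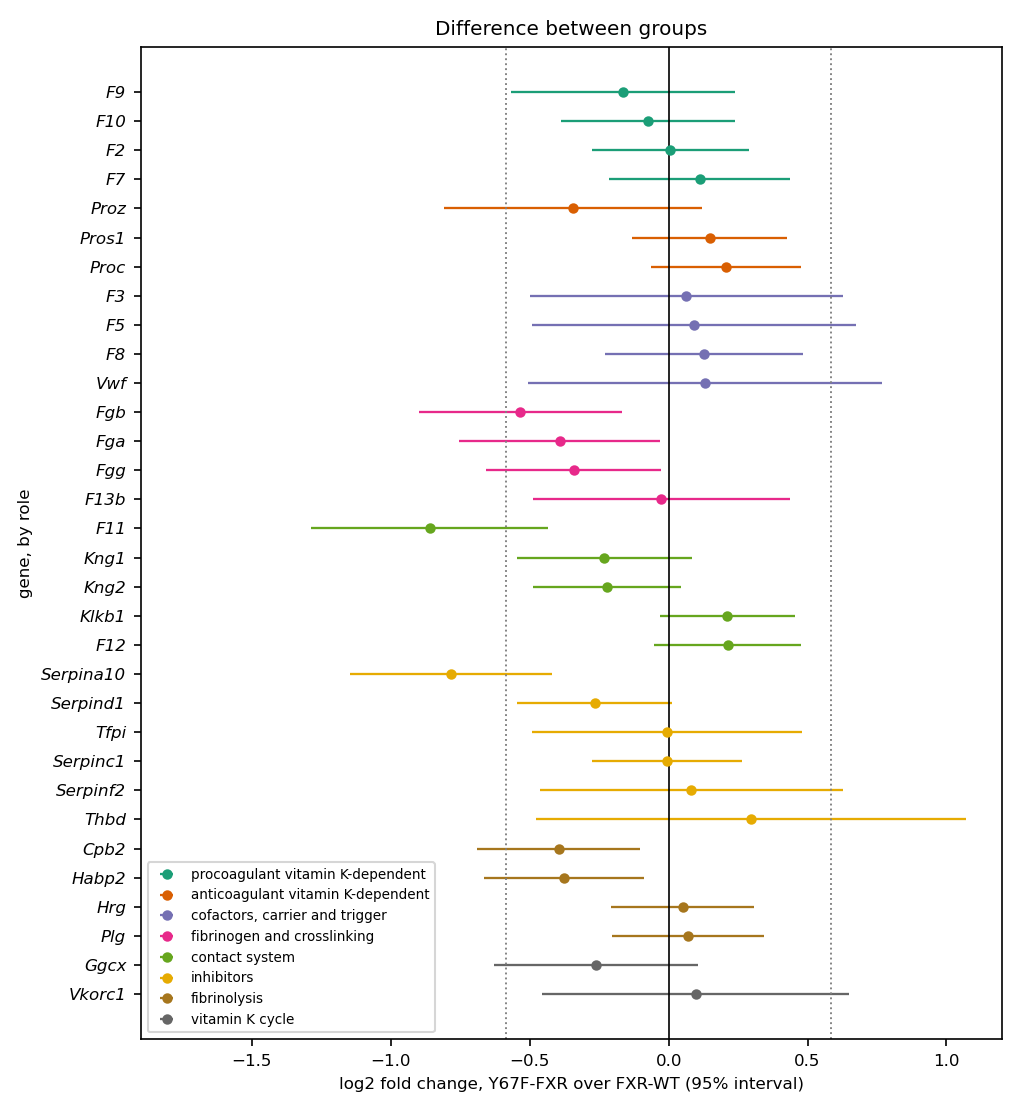
Fitted log2 fold change (Y67F-FXR over FXR-WT) of the 32 genes tested with its 95% interval, coloured by role. The dotted lines stand at a 1.5-fold difference. F11 (-0.86) and Serpina10 (-0.78) are farthest from 0, the 3 fibrinogen genes lie at -0.34 to -0.53 with Cpb2 (-0.40), Habp2 (-0.38) and Proz (-0.34) in the same range, and the other genes lie between -0.27 and 0.30.

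The fibrinogen chains had lower values in the livers with Y67F-FXR, without passing the threshold. Fgb, which encodes the beta chain (8 exons, chr3:82846227-82853712 in mm9), had 3737, 2876 and 3838 CPM in the FXR-WT livers and 2481, 2124 and 2608 CPM in the Y67F-FXR livers. All Y67F-FXR livers were below all FXR-WT livers. Its mean was 3484 ± 529 CPM in FXR-WT and 2404 ± 251 CPM in Y67F-FXR livers (SD, n = 3 each), and its log2 fold change was -0.53 (standard error, SE, of 0.158; adjusted p = 0.184). Fga, the alpha chain gene (5 exons, chr3:82830075-82837539), had 3193, 3077 and 3658 CPM against 2643, 2077 and 2848 CPM. Fgg, the gamma chain gene (10 exons, chr3:82811818-82818971), had 2866, 2232 and 2689 CPM against 2019, 1983 and 2141 CPM. For both genes again the groups did not overlap. The log2 fold change was -0.39 for Fga (SE 0.157, adjusted p = 0.335) and -0.34 for Fgg (SE 0.136, adjusted p = 0.330). Fgb came closest to the threshold under DESeq2, with an adjusted p of 0.055 (0.055 to 0.431 over all alternatives).

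Together the 3 chains took 0.982%, 0.836% and 1.07% of all counted reads in FXR-WT livers and 0.729%, 0.580% and 0.737% in Y67F-FXR livers. They made up between 35.9% and 41.6% of the CPM of the 33 genes in FXR-WT and between 29.4% and 34.0% in Y67F-FXR livers. The summed CPM of the 33 genes was 22827 to 25684 in FXR-WT and 20999 to 22630 in Y67F-FXR livers. Without the fibrinogen chains it was 14302 to 15888 and 13856 to 15034, so that the groups overlapped. The ratio of Fgb to Fgg per exon length was 1.26, 1.25 and 1.38 in FXR-WT and 1.19, 1.04 and 1.18 in Y67F-FXR livers. The ratio of Fga to Fgg was 0.505 to 0.625 and 0.475 to 0.603. The groups did not overlap in the first of these ratios and overlapped in the other. F13b, which encodes the carrier subunit of factor XIII, ranged from 119 to 187 CPM over the 6 livers with a log2 fold change of -0.03.

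**Figure D3:**
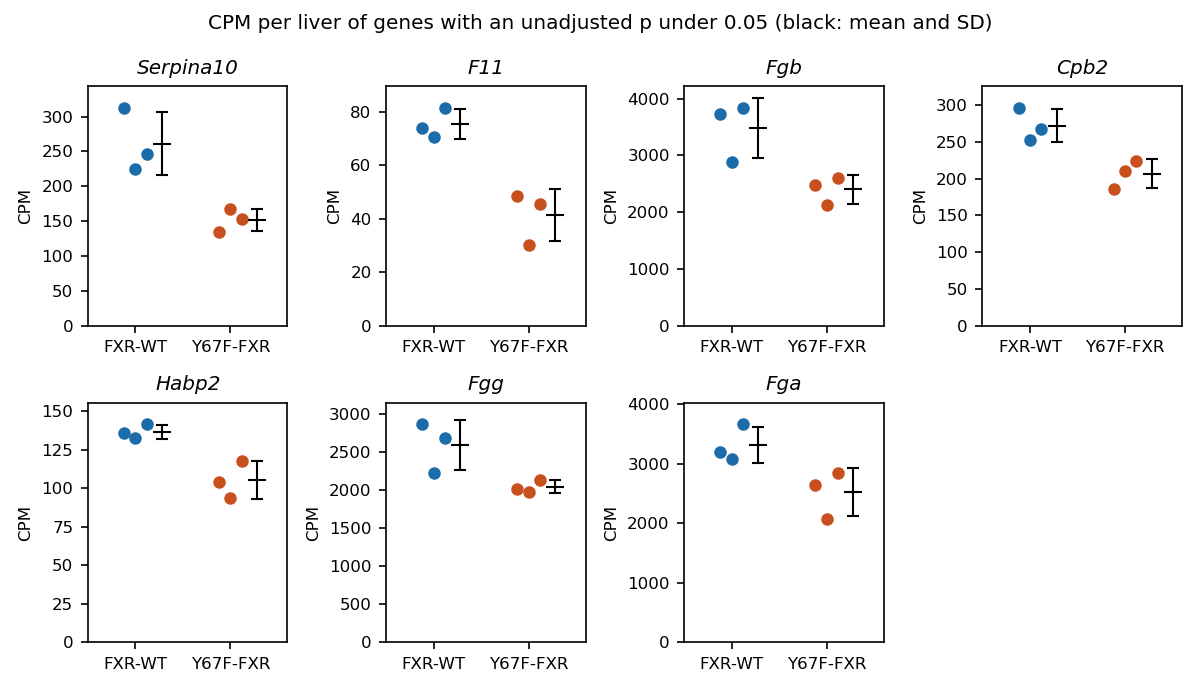
CPM per liver of the 7 genes with an unadjusted p under 0.05, each on an axis that starts at 0, with 1 point per liver (blue, FXR-WT; orange, Y67F-FXR) and the mean with its SD in black. In each panel the 3 Y67F-FXR livers lie below the 3 FXR-WT livers. By the fitted log2 fold change, the level in Y67F-FXR was 55.1% of that in FXR-WT for F11 and 58.1% for Serpina10.

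In the contact system, F11 had the lowest log2 fold change of the 32 genes in this fit. F11 encodes factor XI, the protease that links contact activation to factor IX (15 exons, chr8:46326524-46347385 in mm9). Its values were 73.7, 70.7 and 81.4 CPM in FXR-WT and 48.6, 30.2 and 45.5 CPM in Y67F-FXR livers. Every Y67F-FXR liver was below every FXR-WT liver, and the lowest was Y67F-FXR replicate 2. The means were 75.3 ± 5.54 and 41.4 ± 9.83 CPM (SD, n = 3 each), and the log2 fold change was -0.86 (SE 0.185, adjusted p = 0.093). The adjusted p was 0.0023 with DESeq2 and 0.0524 with an offset for gene length, and over all alternatives it ranged from 0.0023 to 0.267.

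Klkb1, the gene for plasma prekallikrein (15 exons), is the neighbour of F11, 7421 bp away with no other gene between them. It had values that ran the other way, from 129 to 134 CPM in FXR-WT and from 146 to 157 CPM in Y67F-FXR livers (log2 fold change 0.21, adjusted p = 0.445). F12, the gene for factor XII, which starts contact activation, ranged from 486 to 514 CPM and from 541 to 617 CPM (log2 fold change 0.21, adjusted p = 0.489). For both genes all Y67F-FXR livers lay above all FXR-WT livers, within 1.5-fold. In GENCODE vM21, a later transcript set than the one used for counting, 42.1% of the 100-base stretches of Klkb1 transcripts were shared with Gm45753. In the count annotation Klkb1 shared exon bases with no other gene, so no reads were left out for such an overlap. Whether these stretches also lie at another place in the genome was not examined.

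The kininogen genes encode the cofactor of the contact system, from which bradykinin is released. The mouse has a pair of them, 29198 bp apart on chromosome 16. Kng1 (11 exons, chr16:23058373-23082151) had 2540, 2358 and 2111 CPM in FXR-WT and 1780, 2037 and 2155 CPM in Y67F-FXR livers. The highest Y67F-FXR liver was above the lowest FXR-WT liver. Kng2 (11 exons, chr16:22985925-23029174) had 255, 243 and 223 CPM against 195, 205 and 219 CPM, and the groups just failed to overlap. Kng1 had a log2 fold change of -0.23 (SE 0.136, adjusted p = 0.536) and Kng2 one of -0.22 (SE 0.116, adjusted p = 0.473). Per exon length, Kng1 was 8.22 to 8.65 times Kng2 in FXR-WT and 7.93 to 8.63 times in Y67F-FXR livers. Of the 100-base stretches, 4.93% of those of Kng1 were shared with Kng2.

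Among the inhibitors, Serpina10 had the smallest unadjusted p of the 32 genes tested. With the replicate number as a block, and with any single Y67F-FXR liver left out, F11 had the smallest. Serpina10 encodes the protein Z-dependent protease inhibitor, a serpin that acts on factor Xa together with protein Z and also on factor XIa. Serpina10 (5 exons, chr12:104854885-104869615) had 313, 225 and 247 CPM in FXR-WT and 135, 167 and 153 CPM in Y67F-FXR livers. The groups did not overlap: the highest Y67F-FXR liver was below the lowest FXR-WT liver. Its means were 261 ± 45.7 and 152 ± 15.9 CPM (SD, n = 3 each), and its log2 fold change was -0.78 (SE 0.158, adjusted p = 0.075). The adjusted p was 0.0015 with DESeq2, 0.0189 with an offset for gene length and 0.0442 with scaling by library totals alone, and over all alternatives it ranged from 0.0015 to 0.296.

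Proz, the gene for protein Z, the cofactor of that serpin, ranged from 199 to 274 CPM in FXR-WT and from 134 to 208 CPM in Y67F-FXR livers (log2 fold change -0.34, adjusted p = 0.535), and the groups overlapped. Serpind1, the gene for heparin cofactor II, a thrombin inhibitor, ranged from 486 to 571 CPM and from 416 to 457 CPM without overlap (log2 fold change -0.27, adjusted p = 0.397). Serpinc1, the gene for antithrombin (8 exons, chr1:162908737-162933145), had 1968, 1931 and 1853 CPM in FXR-WT and 1887, 1807 and 2034 CPM in Y67F-FXR livers. These values overlapped widely, and the log2 fold change was -0.01 (SE 0.117, adjusted p = 0.993). Its 95% interval, from -0.28 to 0.26, held no difference of 1.5-fold. In GENCODE vM21, 32.2% of the 100-base stretches of Serpinc1 transcripts were shared with Zbtb37.

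For the other inhibitors the groups overlapped. Serpinf2, the gene for alpha-2-antiplasmin, which blocks plasmin, had 1422, 880 and 876 CPM in FXR-WT and 964, 1409 and 992 CPM in Y67F-FXR livers. Here 1 liver in each group was high, FXR-WT replicate 1 and Y67F-FXR replicate 2. The log2 fold change was 0.08. Tfpi, tissue factor pathway inhibitor, ranged from 2.95 to 4.28 CPM with a log2 fold change of -0.01, and Thbd, thrombomodulin, from 1.12 to 2.72 CPM with a log2 fold change of 0.30 and an interval from -0.48 to 1.07.

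In fibrinolysis, 2 genes of proteins that modulate the process had lower values in Y67F-FXR livers, while the precursor of the main protease did not. Cpb2 encodes the fibrinolysis inhibitor TAFI, a carboxypeptidase that removes plasminogen binding sites from fibrin (11 exons, chr14:75642094-75683360). Its values were 296, 252 and 267 CPM in FXR-WT and 185, 210 and 224 CPM in Y67F-FXR livers. Habp2 encodes a plasma protease that activates factor VII and urokinase (12 exons, chr19:56362428-56394579), and had 135, 132 and 141 CPM against 104, 93.4 and 118 CPM. In both genes every Y67F-FXR liver was below every FXR-WT liver. Cpb2 had a log2 fold change of -0.40 (SE 0.127, adjusted p = 0.223) and Habp2 one of -0.38 (SE 0.124, adjusted p = 0.234). Habp2 shares exon bases with Nrap in the count annotation, and reads on both were left out.

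Plg, the plasminogen gene (19 exons, chr17:12571475-12612250), had 2517, 2314 and 2304 CPM in FXR-WT and 2387, 2635 and 2467 CPM in Y67F-FXR livers. The groups overlapped, and the log2 fold change was 0.07 (SE 0.118, adjusted p = 0.874). Its interval, from -0.20 to 0.34, held no difference of 1.5-fold. Hrg, histidine-rich glycoprotein, which binds plasminogen and heparin, ranged from 1289 to 1410 CPM with a log2 fold change of 0.05.

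For the procoagulant vitamin K-dependent factors the groups overlapped. F2, the prothrombin gene (14 exons, chr2:91465477-91476571), had 1686, 1576 and 1513 CPM in FXR-WT and 1458, 1658 and 1677 CPM in Y67F-FXR livers. Neither group was the higher, with a log2 fold change of 0.01 (SE 0.122, adjusted p = 0.994) and an interval from -0.28 to 0.29. F7, the factor VII gene, ranged from 78.1 to 103 CPM over the 6 livers (log2 fold change 0.11), F9, the factor IX gene, from 143 to 226 CPM (-0.16), and F10, the factor X gene, from 395 to 526 CPM (-0.08). F7, F10 and Proz lie in a row on chromosome 8, with 1498 bp and 4231 bp between them. No gene of the count annotation lies in these gaps, and the log2 fold changes of the 3 neighbours were 0.11, -0.08 and -0.34, each with an interval that held 0.

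Proc encodes protein C, which as activated protein C cuts factors V and VIII (11 exons). It had 516, 533 and 507 CPM in FXR-WT and 543, 624 and 629 CPM in Y67F-FXR livers. All Y67F-FXR livers were above all FXR-WT livers, with a log2 fold change of 0.21 (SE 0.117, adjusted p = 0.517). Pros1, the gene for its cofactor protein S, ranged from 52.1 to 66.98 CPM with a log2 fold change of 0.15 and overlapping groups.

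Among the cofactors, F5 encodes factor V, the cofactor of factor Xa (25 exons, chr1:166081990-166150405). Its values were 192, 263 and 317 CPM in FXR-WT and 359, 196 and 269 CPM in Y67F-FXR livers. The spread within each group was far wider than the difference between them. The coefficient of variation was 24.4% in FXR-WT and 29.6% in Y67F-FXR livers, and the log2 fold change was 0.09 (SE 0.253, adjusted p = 0.930). F5 shares exon bases with Gm16548 in the count annotation. F8, the gene for factor VIII, the cofactor of factor IXa, ranged from 9.12 to 12.2 CPM (log2 fold change 0.13), Vwf from 3.67 to 7.75 CPM (0.13) and F3 from 3.32 to 6.31 CPM (0.06). These genes had overlapping groups, and the summed endothelial markers overlapped too.

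In the vitamin K cycle, Vkorc1 encodes the reductase that warfarin blocks (3 exons, chr7:135036577-135039131). It had 242, 172 and 150 CPM in FXR-WT and 154, 262 and 189 CPM in Y67F-FXR livers. FXR-WT replicate 1 and Y67F-FXR replicate 2 were the highest livers of their groups, as for Serpinf2. The log2 fold change was 0.10 (SE 0.240, adjusted p = 0.921), and 41% of the 100-base stretches of Vkorc1 transcripts were shared with Gm21974 in GENCODE vM21. Ggcx, the carboxylase that uses vitamin K to modify clotting factors, ranged from 23.3 to 36.5 CPM with a log2 fold change of -0.26 and overlapping groups.

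Several of these genes differed more between livers of one group than between the groups. The livers compared for this were those at the ends of the gene length trend. Across the 32 genes, the log2 ratio of FXR-WT replicate 1 to replicate 3 and that of Y67F-FXR replicate 2 to replicate 1 had the same sign for 23 genes (Pearson's r 0.775, Spearman's rho 0.784, across genes, which are not independent replicates). That was 71.9% of the 32 genes, against 76.0% of the 12447 genes with reads in these 4 livers (r 0.593, rho 0.645), so the sign of this difference was shared about as often among all genes. The pairs were set by that trend, and agreement between them follows in part from this choice. Vkorc1, Vwf and Serpinf2 had the highest ratios in both pairs, from 0.55 to 0.77. F5 was low in both, at -0.73 and -0.87, with F13b (-0.65 and -0.51), Proz (-0.46 and -0.62) and F9 (-0.45 and -0.45). The correlation of these ratios with the GC content of the transcript was 0.381 and 0.526 (r), and with log2 exon length -0.166 and -0.356. The ratios of each pair come from the same libraries. F11 was also lower in Y67F-FXR replicate 2 than in replicate 1 (-0.68), while Fgb differed by -0.04 and -0.22 and Serpina10 by 0.34 and 0.30. The part of GC content or length in these differences was not tested. With an offset for gene length, the log2 fold changes of F11 and Serpina10 were -0.85 and -0.77 and that of Fgb -0.52.

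**Figure D4:**
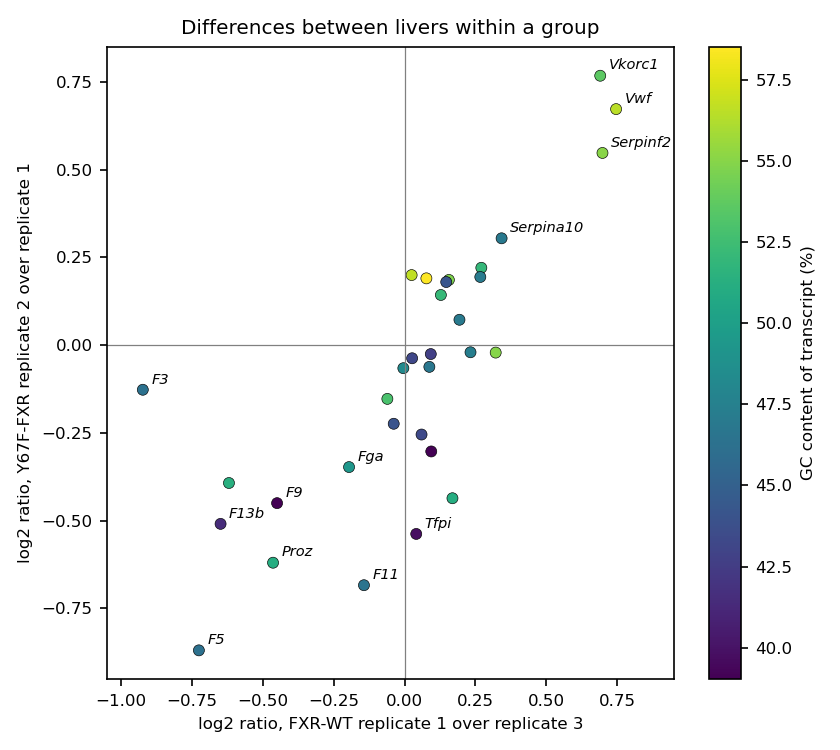
Log2 ratio of FXR-WT replicate 1 to replicate 3 (x axis) against that of Y67F-FXR replicate 2 to replicate 1 (y axis), with 1 point per gene for the 32 genes tested, coloured by the GC content of the transcript in percent. Vkorc1, Vwf and Serpinf2 lie at the upper right and F5 at the lower left, and 23 of the 32 genes have the same sign on both axes.

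A list of 44 further genes of the pathway and its regulators was examined beside these, and 37 of them were tested. By edgeR's quasi-likelihood test 0 were called, 21 had a value below 0 and 16 above 0, and the median log2 fold change was -0.07. An unadjusted p under 0.05 was reached by 6, all lower in Y67F-FXR, where 6.67% of all genes were lower at that threshold. Over the alternatives 3 to 9 were lower. The count was 9 without FXR-WT replicate 1, against 6.41% of all genes. It was 3 without FXR-WT replicate 3 (5.26%), Y67F-FXR replicate 1 (6.4%) or Y67F-FXR replicate 3 (4.65%). In the other direction 1 was higher with the replicate block, against 4.5%, and 1 without Y67F-FXR replicate 2, against 6.27%. DESeq2 called 2 genes of the list lower, Fgl1 and Nr0b2, against 1.55% of all genes to which it gave an adjusted p. Lman1 and Mcfd2 encode the partners that form the receptor carrying factors V and VIII out of the endoplasmic reticulum. Lman1 had 152, 157 and 187 CPM in FXR-WT and 143, 94.98 and 128 CPM in Y67F-FXR livers, and Mcfd2 had 293, 269 and 264 CPM against 210, 232 and 214 CPM. The groups did not overlap in either gene. The log2 fold change was -0.44 for Lman1 (SE 0.172, adjusted p = 0.323) and -0.33 for Mcfd2 (SE 0.113, adjusted p = 0.243). For F5 and F8, the cargo of this receptor, the groups overlapped.

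Fgl1 encodes fibrinogen-like protein 1, a hepatocyte protein with a fibrinogen-type domain. It had 856, 466 and 717 CPM in FXR-WT and 345, 397 and 452 CPM in Y67F-FXR livers. The groups did not overlap, and the log2 fold change was -0.77 (SE 0.225, adjusted p = 0.178). Gas6, a vitamin K-dependent ligand related to protein S, had 66.1, 78.3 and 78.8 CPM against 55.5, 61.9 and 61.2 CPM (log2 fold change -0.32, SE 0.123, adjusted p = 0.304).

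Among 11 regulators of hepatic clotting genes, Nr0b2, which encodes SHP, a repressor that FXR induces, had 81.9, 63.7 and 59.5 CPM in FXR-WT and 6.42, 25.9 and 7.59 CPM in Y67F-FXR livers. All Y67F-FXR livers were below all FXR-WT livers, and Y67F-FXR replicate 2 was the highest of its group. The log2 fold change was -2.37 (SE 0.498, adjusted p = 0.0862). Without Y67F-FXR replicate 2 it was -3.30, with an adjusted p of 0.00265 (0.00265 to 0.302 over all alternatives). Onecut1, the gene for HNF6, had 4.20, 5.43 and 12.4 CPM against 2.92, 1.36 and 4.34 CPM with overlapping groups (log2 fold change -1.35, SE 0.501, adjusted p = 0.289). Without FXR-WT replicate 3, its highest liver, the log2 fold change was -0.74, and with each liver left out in turn it ranged from -1.77 to -0.74. Hnf4a, the gene for HNF4, ranged from 409 to 563 CPM and from 412 to 522 CPM (log2 fold change -0.06, adjusted p = 0.925). Hnf4a was chosen for mention because of the motif.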

How the data were processed

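The deposited values are raw counts per gene. Per the labels and file headers, paired-end 100 bp reads were trimmed with Trimmomatic 0.36, aligned to mm9 with STAR and counted without strand by featureCounts 1.4.6-p4, mates of a pair separately. Reads on several genes or places were not counted, which can lower genes with near copies. A deposited table of the authors' own comparison (fold changes and p-values) was not used.

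Counts were filtered with filterByExpr, scaled by TMM and compared with edgeR 4.0.16 (quasi-likelihood test, Benjamini-Hochberg adjustment over 12453 genes) in R 4.3.3, 3 livers against 3, after a test on simulated data. Standard errors come from the F statistic. The labels number the livers and say no more of their origin, so p-values measure the spread between these samples. Figures used matplotlib 3.10.9. The members and lists were chosen with earlier results of these data known. Given in full were genes called or with an unadjusted p under 0.05, Fga, Fgb, Fgg, Kng1, Kng2 and the most abundant member per length of each role, and for the other members the range and log2 fold change. Of these other members, Serpinf2 was also given liver by liver. Genes outside the set were named if called, if their unadjusted p was under 0.05, or if among the 3 smallest p. Promoters came from RefSeq (GRCm38.p6) and shared stretches and GC content from GENCODE vM21 transcripts. Alternatives were other scaling (RLE factors, library totals), DESeq2 1.42.0, no filter, an offset for gene length (loess, span 0.3), the replicate number as a block, each liver left out, no fold minimum and unadjusted p. Some planned results are not reported here.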

Additional observations from a re-analysis of the deposited data

How the results depend on the processing

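Of the 32 genes tested, 0 were called lower, against 1 with library totals, 2 with DESeq2, 1 with the gene length offset and 2 with an unadjusted p under 0.05 and the 1.5-fold minimum kept (F11 and Serpina10, with Serpina10 alone where the count was 1). No setting called any of them higher. The cause of these differences between settings was not tested. Over all genes, 53 were called lower and 68 higher. DESeq2 called 206 and 213, the length offset 124 and 123, an unadjusted p with the fold minimum 401 and 382, and the test without a filter 81 and 86. Library totals called 68 lower and 52 higher, which turned the split, and moved the median log2 fold change of all genes to -0.06 from 0.01. With 1 liver left out the counts ranged from 7 to 33 lower and from 2 to 35 higher, with 0 of the 32 genes called. They were 7 and 2 without FXR-WT replicate 3, and fewer livers were then compared. Of the 37 related genes, DESeq2 called 2 lower, the test without a filter 1, the length offset 1, an unadjusted p with the fold minimum 3 and leaving out 1 liver 0 to 1 (1 without Y67F-FXR replicate 2).

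The adjusted p with 1 liver left out was 0.098 to 0.267 for F11 and 0.105 to 0.296 for Serpina10. Genes near 0 changed sign. With library totals the log2 fold change was -0.066 for F2, -0.0096 for F3, -0.0013 for Plg and -0.019 for Hrg. For Serpinc1 it was 0.0022 with DESeq2, 2.8e-05 without a filter and 0.0066 with the length offset, and for Tfpi 0.0019 with DESeq2. With 1 liver left out it ranged from -0.033 to 0.068 for F2, -0.12 to 0.013 for F10, -0.15 to 0.27 for F5, -0.13 to 0.25 for Vwf, -0.16 to 0.27 for F3, -0.19 to 0.14 for F13b, -0.046 to 0.021 for Serpinc1, -0.13 to 0.35 for Serpinf2, -0.16 to 0.10 for Tfpi and -0.15 to 0.32 for Vkorc1.

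The labels do not say whether the replicate numbers pair the livers. The correlations of deviations between livers of the same number were -0.52, -0.08 and 0.12. Between livers of different numbers they ranged from -0.59 to 0.58, so these correlations cannot decide the question. With the replicate number as a block, 6 genes were called lower and 2 higher, and 0 of the 32.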
